A study of Mus musculus with 4 samples.

Results

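Histones are the small basic proteins that package DNA, and the 22 genes chosen by symbol for this account are the rows of the deposited expression table whose symbols fit the histone patterns Hist1h to Hist4h, H1f, H2af or H3f3, among 54348 rows. The table carries newer symbols for most other histone genes (H2ac18 for Hist2h2aa1, Macroh2a1 for H2afy), so the same patterns were also applied to the GENCODE M21 symbols of the same Ensembl identifiers. That added 64 genes and gave a family of 86, on which the results below rest, with counts for the 22 beside them. Of these, 69 have a Hist1 to Hist4 symbol in M21 (15 of them among the 22) and are called clustered or replication-dependent here. The other 17 (7 of them among the 22) are called variants. The class follows the symbol and not the position. Hist1h2al, a processed pseudogene, lies at 51202727 on chromosome 13, away from the other Hist1 genes, and the variant H2aj lies near H4f16 (Hist4h4) on chromosome 6. H1f1 to H1f6 are variants by their deposited symbols but cluster genes by their older ones (Hist1h1a to Hist1h1e and Hist1h1t), and were counted as clustered.

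The libraries were RNA-seq profiles of live, tdTomato-positive cells sorted from forebrains of mouse pups at postnatal day 4. The 2 control libraries came from PdgfraCreER;AI14 mice and the 2 fusion libraries from PdgfraCreER;MN1:BEND2;AI14 mice, and all received tamoxifen at postnatal days 0 and 1. PdgfraCreER is a tamoxifen-activated recombinase driven from Pdgfra, a gene of oligodendrocyte precursors and of some fibroblasts. AI14 makes tdTomato after recombination, and MN1:BEND2 is a fusion gene of the brain tumour astroblastoma. The comparison asks what the fusion changes in this lineage. Whether each library had its own mouse is not stated in the labels. The p-values therefore refer to the spread between 2 libraries a group, and that spread could be technical. The cell type label is Pdgfra lineage, and any cell in which Pdgfra drove the recombinase at the time of injection could carry the reporter.

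A nucleosome holds pairs of the core histones H2A, H2B, H3 and H4, and linker histone H1 binds where DNA enters and leaves it. Replication-dependent histone genes are copied in many near-identical versions, are transcribed in S phase to coat newly made DNA, and end their mRNA in a stem-loop, bound by Slbp, in place of a poly(A) tail. Variant genes such as H3f3a, H3f3b and H2az1 have introns and polyadenylated mRNA and supply histones throughout the cell cycle and in cells that do not divide. Some cluster genes also make polyadenylated forms. Per the labels, cDNA was made with a kit for full-length mRNA amplification. The primer of its reverse transcription is not given in these sources, and it bears on whether mRNA without a poly(A) tail was captured.

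The stem-loop, described above as the end of replication-dependent histone mRNA, is shown here, though the classes were set by symbol. It was searched on the sense strand of the GENCODE M21 transcripts (GRCm38) by its consensus of 16 bases. It was found in 46 of 69 clustered genes (66.7%), in 1 of 17 variants (5.9%, H2ax) and in 0.31% of 21901 protein-coding genes. Capitals mark the 16 bases and lower case the bases beside them, written as DNA.
H2aw: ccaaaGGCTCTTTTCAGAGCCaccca
H2ac18: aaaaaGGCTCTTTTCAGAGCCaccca
H2ac19: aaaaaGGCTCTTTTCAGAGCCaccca
H2ac20: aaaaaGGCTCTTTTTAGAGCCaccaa
Hist1h2ap: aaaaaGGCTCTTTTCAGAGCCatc
H2bc3: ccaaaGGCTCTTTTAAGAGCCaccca
H4c9: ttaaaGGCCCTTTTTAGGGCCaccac
Hist1h4n: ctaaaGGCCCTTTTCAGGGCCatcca
H2ax: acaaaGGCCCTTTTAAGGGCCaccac
The form in H2aw, H2ac18, H2ac19 and Hist1h2ap was the most frequent, in 26 clustered genes. H4c9 and Hist1h4n carried other stems, and the form in H2ax was in none of the clustered genes. The annotated transcript of H2aw (chromosome 11, 58954685 to 58956830, + strand) ran 1643 bases past the loop, that of H2ax 822 and that of H4c9 330, whereas those of H2ac18 and H2ac19 ended 35 bases and that of Hist1h2ap 3 bases after it. A transcript that runs on is an annotation, and which form was sequenced was not measured. Another 23 clustered genes had no loop in their annotated transcript.

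Values are TPM, a share of all transcripts after division by transcript length. Levels of different genes can therefore be set side by side, but the number of reads behind them is unknown. Several whole-library measures moved with genotype. Mitochondrially encoded genes took 7.30% to 10.1% of TPM in the control and 26.2% to 48.7% in the fusion libraries, and genes at 1 TPM or more numbered 12772 to 13219 and 9050 to 10017. The Y-linked gene Eif2s3y had 121 and 122 TPM in controls and a listed 0 in each fusion library, so sex and genotype cannot be told apart. Over the 12871 genes tested the median log2 change was -1.41, with 51.3% called lower and 4.95% called higher. Summed TPM of 7 oligodendrocyte precursor markers was 1058 and 1371 in controls against 316 and 426 with the fusion, none of the 7 being listed at 0 in any library, and of 12 microglia and macrophage markers 140 and 59.7 against 494 and 722, with P2ry12 listed at 0 in both fusion libraries. Fibroblast markers (8 genes) summed to 47.9 and 126 against 485 and 966, of which Mgp alone made 0 and 1.34 against 364 and 717; of the 7 tested, 3 were higher and the others (Dcn, Lum, Col3a1 and Col1a2) did not pass. Astrocyte markers (5 genes) summed to 216 and 261 against 22.6 and 49.3 TPM, neuron markers (5 genes) to 175 and 163 against 36.7 and 18, and endothelial markers (5 genes) to between 1.19 and 2.33. The part of these in the histone results was not tested. In bulk samples fewer cells of a type and less RNA per cell cannot be told apart.

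Variant genes held most of the histone TPM in every library. Whether mRNA without a poly(A) tail was captured is not known, so this is not a share of the histone transcripts in the cells. Their TPM summed to 8071 and 7116 in controls against 3006 and 7501 with the fusion. The clustered genes summed to 279 and 398 TPM in controls, 227 TPM in fusion replicate 1 and 2113 TPM in fusion replicate 2. The fusion libraries thus lay on either side of the controls for the clustered genes, and for the variants replicate 1 lay below them and replicate 2 between them. The ratio of variant to clustered TPM was 29.0 and 17.9 in controls against 13.2 and 3.55 with the fusion. Within the variants, H3f3a, H3f3b, H2az1 and H2az2 made up 97.5% to 99.2% of the sum in every library. Within the clustered genes a single row, Hist1h2ap, took 86.3% of the sum in fusion replicate 2 and 8.97% to 24.7% in the other libraries. Without it the clustered genes summed to 254 and 351 against 171 and 289 TPM.

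**Figure D1:**
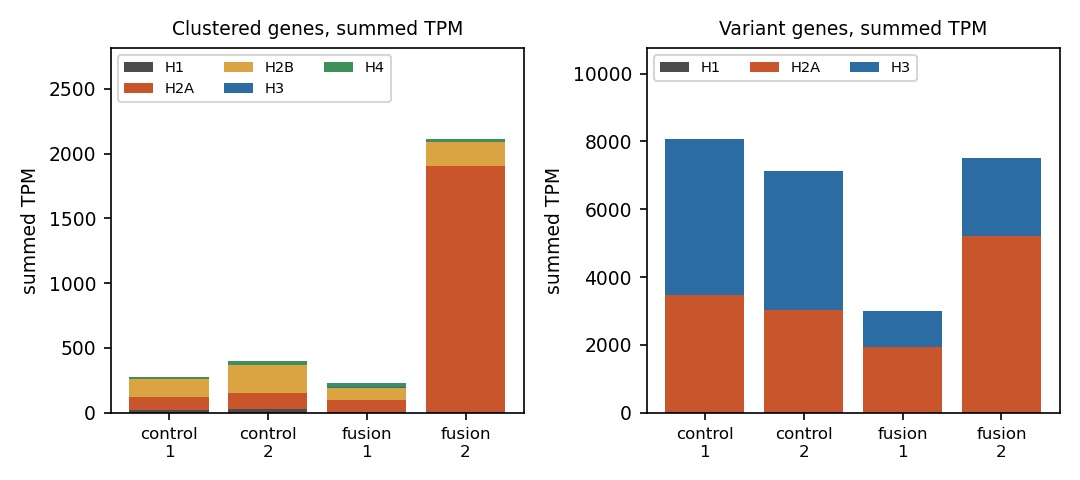
Summed TPM of the 69 clustered genes (left) and the 17 variant genes (right) in each library, stacked by histone type; the y axes differ in scale. Clustered H2A rises to 1903 TPM in fusion replicate 2 alone, and variant H3 is 4609 and 4078 TPM in controls against 1054 and 2301 TPM with the fusion.

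Of the 86 genes, 20 were listed at 0 in all 4 libraries, 41, these included, were under 1 TPM in each, and 32 had at least 1 TPM in at least 2 libraries and were tested. A gene that passed only through the group where it is high had to differ, so the counts describe the tested genes and not the family. This holds for H2ac19, H2ac20, H2bc14, H2bc21 and Hist1h4n, which reached 1 TPM in the controls alone, and for H2bc3, which reached it in the fusion libraries alone; their calls are given as descriptions. Among the 32, 12 were lower in the fusion libraries, 1 was higher and 19 did not pass (limma, Benjamini-Hochberg over all 12871 genes, adjusted p under 0.05). That is 37.5% lower, where 51.3% of all tested genes were. Of the 22 genes found by deposited symbol, 9 were tested, 4 were lower and none was higher (H1f2, Hist1h4n, H1f0 and H3f3b). The median log2 change was -0.57 over the 32 genes, -0.37 over the 23 clustered and -1.54 over the 9 variant genes, beside -1.41 over all. Of the clustered genes 10 averaged at least 5 TPM, and of the variants 9. On log2(TPM + 1) a gene near 1 TPM can fall only a little, so these medians are not on an equal footing. By class, 7 of 23 clustered genes fell (30.4%) and 1 rose, and 5 of 9 variants fell (55.6%) and none rose. Both fusion libraries lay below both control libraries for 15 of the 32 and above them for 6, where this held for 71.1% and 10.2% of all tested genes.

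**Figure D2:**
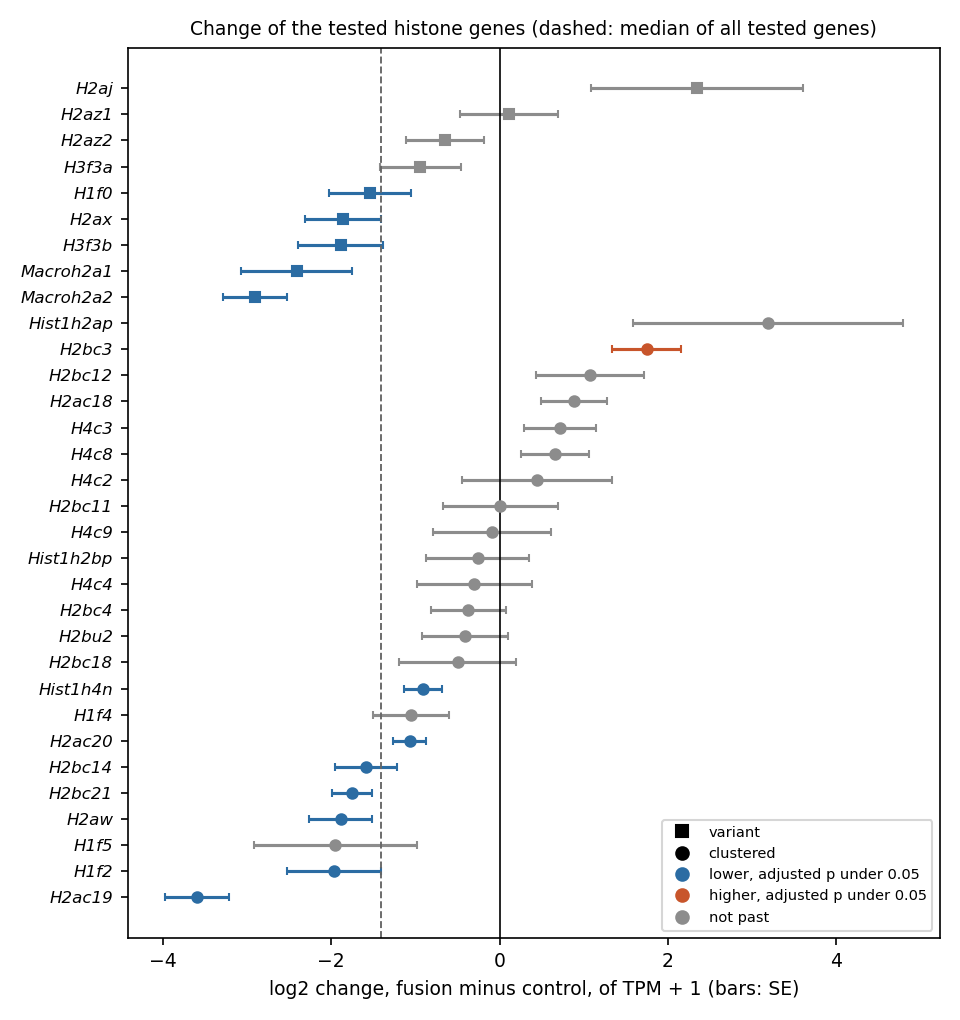
Log2 change of the 32 tested histone genes, fusion minus control, with the SE of the fit over all genes; squares are variants and circles clustered genes, and colour shows the call. The variants that fell lie at -1.54 to -2.90, near or beyond the dashed median of all tested genes at -1.41. Most clustered genes lie to its right, many of them at low levels where log2(TPM + 1) understates a change.

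The H3.3 genes are the replacement form of H3, put into chromatin outside replication by Hira and by Daxx with Atrx; both encode the same protein. H3f3b (ENSMUSG00000016559.14, chromosome 11, 116021912 to 116027962) had 3093 and 2463 TPM in controls against 499 and 1111 TPM with the fusion. The groups did not overlap, and the level fell by 1.89 ± 0.50 on the log2 scale (SE, adjusted p = 0.0264, limma). H3f3a (ENSMUSG00000060743.12, chromosome 1, 180800832 to 180813943) had 1516 and 1615 against 555 and 1190 TPM, also without overlap, and did not pass (log2 change -0.94 ± 0.48, adjusted p = 0.145, limma). H3f3b exceeded H3f3a 2.04 and 1.53 times in the control libraries, whereas with the fusion the ratio was 0.9 and 0.934. A ratio within a library does not depend on its scaling; it shows unequal change, and the difference between the genes' changes was not tested. H3f3c, a copy called a processed pseudogene in M21, was at 0.294 TPM in control replicate 1 and listed at 0 elsewhere. H3f3a passed without fusion replicate 1 (-0.39, adjusted p = 0.0456) and without fusion replicate 2 (-1.49, adjusted p = 0.00250, limma), fits in which the lone fusion library is assumed to vary like the controls. Taken against the median change over all genes, H3f3b lay at -0.48 and H3f3a at 0.46. After rescaling to a median ratio of 1, described below, H3f3b changed by -0.12 (adjusted p = 0.826, limma), and H3f3a turned to 0.83 (adjusted p = 0.0920). Quantile normalization kept both lower, H3f3b at -2.02 (adjusted p = 0.00802) and H3f3a at -1.0 (adjusted p = 0.0217, limma). Without mitochondrial and ribosomal protein genes H3f3b stood at -1.26 (adjusted p = 0.0256) and H3f3a at -0.31 (adjusted p = 0.376, limma).

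H2A.Z, a variant placed at promoters by the Srcap and Ep400 remodellers, had the highest TPM of the histones in the fusion libraries. H2az1 (older symbol H2afz, chromosome 3, 137864487 to 137866922) had 2847 and 2537 TPM in controls against 1760 and 4765 TPM with the fusion, which lay on either side of the controls (log2 change 0.11 ± 0.58, SE, adjusted p = 0.884, limma). After rescaling to a median ratio of 1 H2az1 was the variant called higher, by 1.88 (adjusted p = 0.0267), while quantile normalization gave -0.29 (adjusted p = 0.567, limma). The call also rested on the library kept: H2az1 changed by 0.83 without fusion replicate 1 (adjusted p = 0.0117) and by -0.61 without fusion replicate 2 (adjusted p = 0.0201, limma). Its paralog H2az2 had 438 and 321 against 168 and 340 TPM, with overlap (log2 change -0.65 ± 0.46, adjusted p = 0.278, limma). Without fusion replicate 2 H2az2 changed by -1.15 (adjusted p = 0.0205, limma). Of the 31-base words in H2az1 transcripts 42.3% recur in other genes, and of those in H2az2 1.0%. The level of H2az1 was 6.5 and 7.91 times that of H2az2 in controls, against 10.5 and 14.0 times with the fusion.

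The macroH2A genes, whose proteins carry a large globular domain and mark silent chromatin including the inactive X chromosome, had the largest falls among the variants. Macroh2a2 (H2afy2, chromosome 10, 61738665 to 61784147) had 59.9 and 49.5 TPM in controls against 5.52 and 7.49 TPM with the fusion, well apart. Its level fell by 2.90 ± 0.38 on the log2 scale (SE, adjusted p = 0.00450, limma). Macroh2a1 (H2afy, chromosome 13, 56073619 to 56136361) had 70.2 and 83.8 against 6.78 and 26.4 TPM, a log2 change of -2.41 ± 0.66 (adjusted p = 0.0284, limma). Relative to the median of all genes the changes were -1.49 and -1.0. After rescaling they were -1.24 (adjusted p = 0.0503) and -0.72 (adjusted p = 0.333, limma). Macroh2a3, called a processed pseudogene in M21, reached 0.0747 TPM in a single library.

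Among the other variants, H2ax encodes the H2A form phosphorylated at DNA breaks, and its gene makes both stem-loop and polyadenylated mRNA. H2ax (chromosome 9, 44334694 to 44336077) had 10.9 and 16.4 TPM in controls against 2.57 and 3.44 TPM with the fusion. The groups did not overlap (log2 change -1.86 ± 0.45, SE, adjusted p = 0.0200, limma). After rescaling H2ax changed by -0.34 (adjusted p = 0.563) and after quantile normalization by -0.33 (adjusted p = 0.559, limma). H1f0, the linker histone of slowly dividing and differentiated cells, had 33.9 and 28.9 against 6.71 and 15.1 TPM, and fell by 1.54 ± 0.49 (adjusted p = 0.0442, limma). That is -0.13 relative to the median of all genes, and the change turned to 0.13 after rescaling (adjusted p = 0.823). H2aj, a variant close in sequence to cluster H2A, had 1.23 and 1.35 TPM in controls against 2.03 and 43.5 TPM with the fusion. Its high value belonged to fusion replicate 2 alone, and it did not pass (log2 change 2.34 ± 1.26, adjusted p = 0.166, limma), though it did without fusion replicate 1 (4.28, adjusted p = 0.00426). The oocyte and testis genes H1f8 and H1f7 and the testis-expressed H2ab1, H2ab2 and H2ab3 never exceeded 0.0310 TPM, and H1f10 never exceeded 0.412 TPM.

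**Figure D3:**
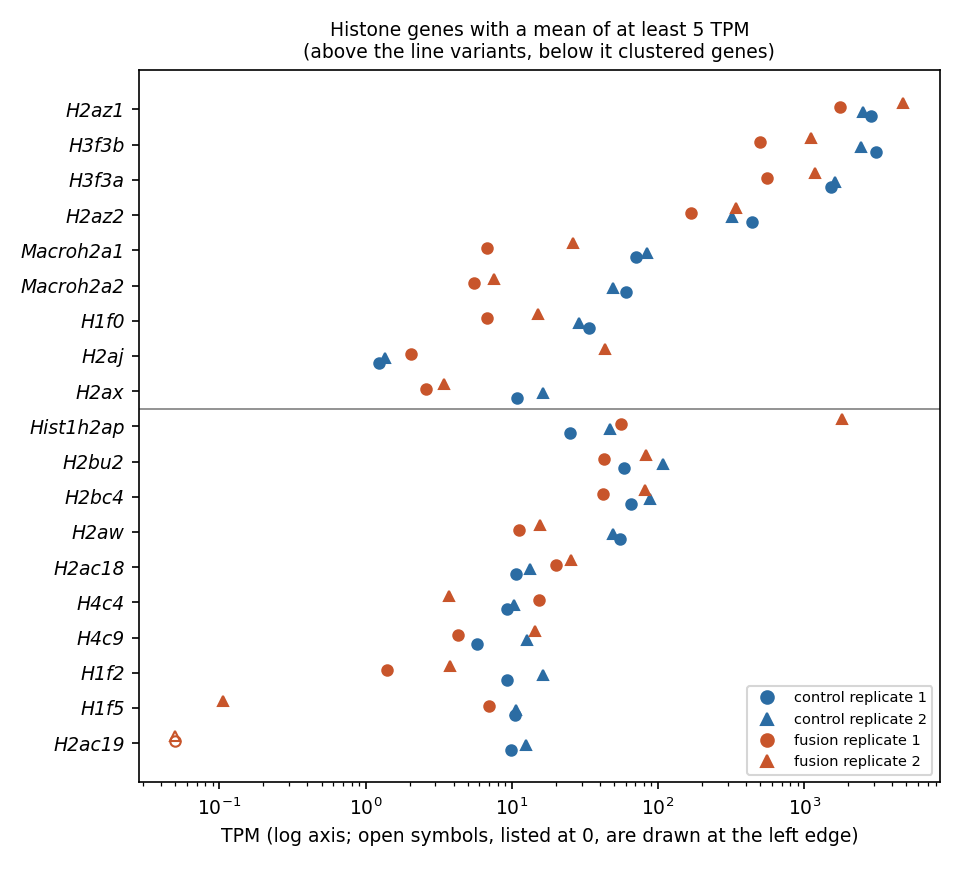
TPM of the 19 histone genes with a mean of at least 5 TPM in each of the 4 libraries, on a log axis; colour shows the group and shape the replicate number. Both fusion libraries lie left of both control libraries for Macroh2a1, Macroh2a2, H1f0, H2ax, H2aw, H1f2, H3f3b, H3f3a, H1f5 and H2ac19. For Hist1h2ap and H2aj fusion replicate 2 lies far to the right of the other 3.

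The clustered genes are described by histone type. H1 genes (6 clustered) were lower in sum, at 21.4 and 29.6 TPM in controls against 8.47 and 5.12 TPM with the fusion. H1f2 (Hist1h1c, chromosome 13, 23738808 to 23740367) had 9.23 and 16.3 against 1.40 and 3.77 TPM and fell by 1.97 ± 0.56 on the log2 scale (SE, adjusted p = 0.0321, limma). H1f5 (Hist1h1b) had 10.5 and 10.6 against 6.99 and 0.105 TPM, so that fusion replicate 2 alone was far from the controls. It did not pass (log2 change -1.95 ± 0.97, adjusted p = 0.139, limma), and without fusion replicate 1 it did (-3.38, adjusted p = 0.00616). H1f4 had 1.62 and 2.52 against 0 and 1.17 TPM and did not pass either (adjusted p = 0.10, limma). H1f3 was at 0.221 TPM or less, and H1f1 and the testis gene H1f6 were listed at 0 in every library. After rescaling H1f2 changed by -0.53 (adjusted p = 0.450, limma).

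H2A genes (20 clustered) held both the lowest and the highest log2 change of the tested family, and both concern rows whose sequence is largely shared with other genes. H2ac19 (Hist2h2aa2, chromosome 3, 96239749 to 96240276, - strand) had 9.91 and 12.5 TPM in controls, and the fusion libraries both list it at 0 (log2 change -3.60 ± 0.38, SE, adjusted p = 0.00371, limma). H2ac18 (Hist2h2aa1, 96245497 to 96246082, + strand) lies beside it in opposite orientation and had 10.6 and 13.3 against 20.2 and 25.4 TPM (log2 change 0.88 ± 0.39, adjusted p = 0.105, limma). H2ac18 passed as higher after median ratio scaling (2.52, adjusted p = 0.0115), quantile normalization (2.54, adjusted p = 0.00908) and GC and length correction (1.65, adjusted p = 0.0176). It also passed without mitochondrial and ribosomal protein genes (1.5, adjusted p = 0.0230) and without fusion replicate 1 (1.04, adjusted p = 0.0477, limma). All 498 words of 31 bases in the H2ac19 transcript also occur in that of H2ac18, so no stretch of that length or shorter is particular to H2ac19. Those of H2ac18 in turn all occur in Gm20633, a gene model on the opposite strand over the same place, and without strand their reads cannot be told apart. Summed, the pair had 20.5 and 25.8 TPM in controls against 20.2 and 25.4 TPM with the fusion, a log2 ratio of -0.02. The controls split the sum nearly evenly between the rows and the fusion libraries gave it all to H2ac18. H2ac19 was called lower under each of the 15 other settings tried, none of which sums the pair. It was tested through its control values alone, and the call is given as a property of the row. After rescaling, the pair's summed level was 11.5 and 12.4 against 44.0 and 36.8 TPM, so whether the pair changed turned on the scaling.

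Hist1h2ap (ENSMUSG00000094777.2, chromosome 13, 21833026 to 21833507, - strand) had 25.0 and 47.2 TPM in the control libraries, 56.2 TPM in fusion replicate 1 and 1824 TPM in fusion replicate 2. Both fusion values lay above both control values, but the spread within the fusion group was far wider than the gap (log2 change 3.19 ± 1.60, SE, adjusted p = 0.141, limma). Without fusion replicate 2 the change was 0.69 (adjusted p = 0.233), and without fusion replicate 1 it was 5.69 (adjusted p = 0.00367, limma). Other H2A rows were also high in that library only: H2ac11 had 16.2 TPM there and at most 0.491 TPM elsewhere. Hist1h2ao had 9.03 TPM there and was listed at 0 elsewhere, and H2ac8 had 8.13 TPM and at most 0.658 TPM elsewhere. Of the 31-base words of Hist1h2ap 93.4% recur in Hist1h2ao, so the division of reads between these rows is uncertain. Clustered H2A without Hist1h2ap summed to 78.0 and 77.7 TPM in controls against 34.2 and 79.5 TPM with the fusion. Among the other types, rows highest in that library included H2bc13 (3.51 TPM, at most 0.737 elsewhere) and H3c2 (2.12 TPM, listed at 0 elsewhere). Hist1h4m had 2.00 TPM there and was listed at 0 elsewhere. Other rows were higher in fusion replicate 1, such as H4c2 (5.75 TPM) and H2bc18 (2.73 TPM), both listed at 0 in replicate 2. Of the 23 tested clustered genes, 10 were higher in fusion replicate 2 than in replicate 1. This held for 62.1% of all tested genes.

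**Figure D4:**
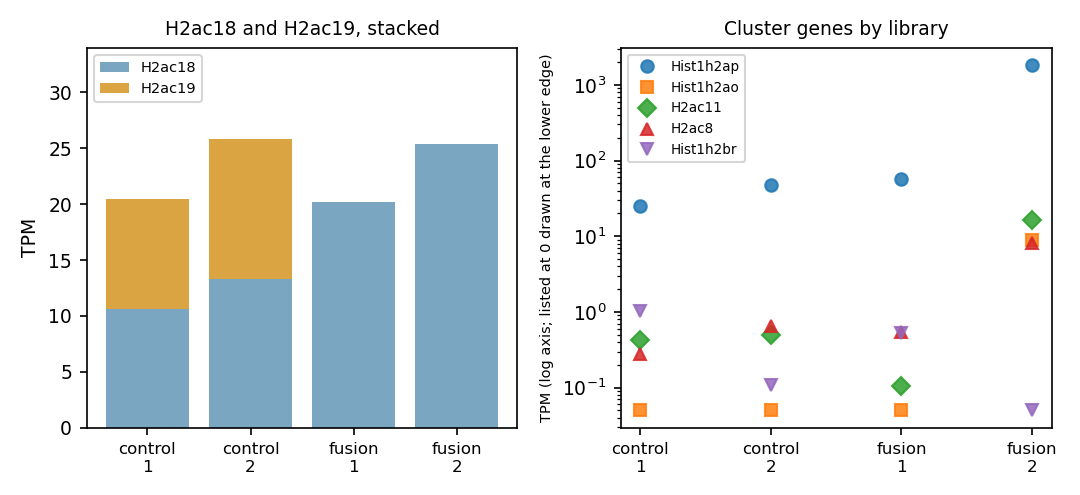
Left, TPM of H2ac18 and H2ac19 stacked in each library, with totals between 20.2 and 25.8. Right, TPM on a log axis of Hist1h2ap, of 3 other H2A genes and of Hist1h2br, the H2B gene that faces Hist1h2ap; the 4 H2A genes are highest in fusion replicate 2, where Hist1h2br is listed at 0.

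The other tested H2A genes fell. H2aw (Hist3h2a) lies in the small cluster on chromosome 11, has a polyadenylation signal within 50 bases of its annotated end, and 32.1% of its 31-base words also occur in Trim17, which overlaps it on the same strand. It had 54.5 and 49.5 TPM in controls against 11.2 and 15.7 TPM with the fusion (log2 change -1.89 ± 0.37, SE, adjusted p = 0.0111, limma). H2ac20 (Hist2h2ac), tested through its control values alone, had 1.30 and 1.04 against 0.0573 and 0 TPM (log2 change -1.07 ± 0.20, adjusted p = 0.00973, limma). Another 6 of the 20 were listed at 0 everywhere. After rescaling H2aw changed by -0.19 (adjusted p = 0.668) and H2ac20 by -0.60 (adjusted p = 0.0679, limma).

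H2B genes (18 clustered) held the most abundant clustered rows of the control libraries. H2bu2 (Hist3h2ba, chromosome 11, 58948920 to 58949533) had 58.5 and 108 TPM in controls against 42.8 and 83.2 TPM with the fusion, with overlap (log2 change -0.41 ± 0.51, SE, adjusted p = 0.521, limma). H2bc4 (Hist1h2bc, chromosome 13, 23684199 to 23692908) had 65.5 and 88.7 against 42.2 and 81.2 TPM, also with overlap (log2 change -0.37 ± 0.45, adjusted p = 0.506, limma). Both turned upward after rescaling, by 1.34 (adjusted p = 0.0422) and 1.37 (adjusted p = 0.0244, limma). H2bc3 (Hist1h2bb), tested through its fusion values alone, was the 1 clustered gene called higher, with 0 and 0.704 against 4.27 and 2.65 TPM (log2 change 1.75 ± 0.41, adjusted p = 0.0178, limma). H2bc21 (Hist2h2be) had 2.17 and 2.59 against 0.00747 and 0 TPM (log2 change -1.75 ± 0.24, adjusted p = 0.00482, limma). H2bc14 had 1.68 and 3.51 against 0.339 and 0 TPM (log2 change -1.59 ± 0.37, adjusted p = 0.0171, limma). H2bc21 and H2bc14 were tested through their control values alone.

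H3 and H4 genes of the clusters were low in every library. The 12 clustered H3 genes summed to 0.509 and 0.602 TPM in controls against 2.63 and 2.15 TPM with the fusion, none was tested, and 6 were listed at 0 throughout. The fusion sums rested mainly on H3c10 at 1.88 TPM in fusion replicate 1 and H3c2 at 2.12 TPM in fusion replicate 2. The 13 clustered H4 genes summed to 17.9 and 29.8 against 30.2 and 23.8 TPM. H4c9 (Hist1h4i) had 5.77 and 12.7 against 4.29 and 14.4 TPM, and H4c4 (Hist1h4d) 9.22 and 10.4 against 15.3 and 3.69 TPM; neither passed (adjusted p = 0.917 and 0.724, limma). H4c4 passed without fusion replicate 1 (-1.20, adjusted p = 0.0479). The fusion libraries lay in opposite order for these genes, replicate 2 being the higher for H4c9 and replicate 1 for H4c4. Hist1h4n, tested through its control values alone, had 1.04 and 1.16 against 0.241 and 0 TPM (log2 change -0.91 ± 0.22, SE, adjusted p = 0.0199, limma). It shares 85.2% of its 31-base words with Hist1h4m, which was listed at 0 in 3 libraries and at 2.00 TPM in fusion replicate 2.

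The calls were also counted by annotated features of the clustered genes, to be read beside the 51.3% of all tested genes called lower. Of the 23 genes whose transcript runs 100 bases or more past the loop, 7 were tested and 2 fell. Of the 23 whose transcript ends within 100 bases of it, 12 were tested, 4 fell and 1 rose, and of the 23 with no loop, 4 were tested and 1 fell. Sharing of sequence was wide: 44 of 69 clustered genes had at least 50% of their 31-base words in another gene. Among those 44, 12 were tested and 4 fell, and among the other 25, 11 were tested, 3 fell and 1 rose. The median log2 change was -0.12 and -0.41. Cluster Hist1 on chromosome 13 had 56 genes, of which 16 were tested, 3 fell and 1 rose, and cluster Hist2 on chromosome 3 had 10, of which 5 were tested and 3 fell. The filter set the directions of H2ac19, H2ac20, H2bc14, H2bc21, Hist1h4n and H2bc3, which passed it only through the group where they are high. Those genes make up every call among genes ending within 100 bases of the loop, genes with no loop, the 44 and cluster Hist2. These counts therefore do not compare the features.

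Many cluster genes face each other across a short promoter. In M21 14 pairs of the family lay head to head with less than 1000 bases between them, 13 of them an H2A beside an H2B, with gaps of 175 to 659 bases. In a single pair both genes were tested, H2ac20 and H2bc21 on chromosome 3, and both fell, as given above. Both were tested through their control values alone, so the filter set this shared direction, which is not a result about the pair. In other pairs a single partner was abundant. H2bc4 averaged 69.4 TPM and its partner H2ac6 0.101 TPM over the 4 libraries. Hist1h2ap averaged 488 TPM and Hist1h2br 0.419 TPM, and where Hist1h2ap was at 1824 TPM Hist1h2br was listed at 0. The promoters of H2ac6 and H2ac20, whose windows reach over the shared gaps, and those of H3f3b and Macroh2a2 as variants that fell, are shown because the data bear on them. Each is the 250 bases before the RefSeq start in GRCm38.p6, 5′ to 3′ on the gene's strand, which is the minus strand for all 4: chr13:23683960-23684209 for H2ac6, chr3:96220881-96221130 for H2ac20, chr11:116024505-116024754 for H3f3b and chr10:61783865-61784114 for Macroh2a2. The RefSeq start of H3f3b lies inside the longer M21 gene. Capitals mark every match, on either strand, to the CCAAT box (CCAAT), the TATA box (TATAAA) or the octamer known from H2B promoters (ATTTGCAT).
H2ac6: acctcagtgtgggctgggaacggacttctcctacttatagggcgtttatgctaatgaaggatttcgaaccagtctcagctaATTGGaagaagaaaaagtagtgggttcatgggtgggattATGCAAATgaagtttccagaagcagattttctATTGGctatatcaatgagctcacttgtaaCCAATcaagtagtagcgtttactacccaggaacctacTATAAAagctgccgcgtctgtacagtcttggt
H2ac20: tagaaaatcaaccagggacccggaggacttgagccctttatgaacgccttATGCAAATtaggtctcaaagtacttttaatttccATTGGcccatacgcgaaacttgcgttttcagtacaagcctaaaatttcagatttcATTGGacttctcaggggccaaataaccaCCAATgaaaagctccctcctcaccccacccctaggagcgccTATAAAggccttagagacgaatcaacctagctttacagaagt
H3f3b: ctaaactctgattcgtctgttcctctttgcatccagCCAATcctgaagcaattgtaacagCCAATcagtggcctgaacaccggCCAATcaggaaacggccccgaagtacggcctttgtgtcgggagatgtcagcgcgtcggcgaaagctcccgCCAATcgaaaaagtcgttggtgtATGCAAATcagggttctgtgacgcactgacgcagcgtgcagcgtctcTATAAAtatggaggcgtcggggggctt
Macroh2a2: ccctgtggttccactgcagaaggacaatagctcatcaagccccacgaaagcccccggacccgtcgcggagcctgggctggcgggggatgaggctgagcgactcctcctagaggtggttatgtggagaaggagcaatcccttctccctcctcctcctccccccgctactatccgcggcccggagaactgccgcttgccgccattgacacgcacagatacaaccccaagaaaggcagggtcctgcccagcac
The windows of H2ac6 and H2ac20 each held 3 CCAAT with 1 TATAAA and 1 octamer. H3f3b held 4 CCAAT with 1 TATAAA and 1 octamer, and Macroh2a2 held none of these letters. RefSeq windows matched 69 of the 86 genes. CCAAT stood in 45 of 54 clustered promoters (83.3%), 9 of 15 variant promoters (60.0%) and 34.5% of 27025 promoters in all. TATAAA stood in 46.3%, 6.7% and 13.0%, and the octamer in 24.1%, 6.7% and 1.6%. A match is a description of the letters and not a site.

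The scaling of the libraries changed the direction of 7 of the 24 named histone genes. Once each library was divided by its median ratio to the genes' geometric means, 18.6% of all tested genes were lower and 14.3% higher. Of the clustered genes 2 were then lower and 6 higher, and of the variants none was lower and 1 was higher (limma, adjusted p under 0.05). In that setting the clustered genes without Hist1h2ap summed to 142 and 169 in controls against 374 and 419 with the fusion, and H3f3a with H3f3b to 2587 and 1966 against 2301 and 3328. The histone genes lower under both scalings were H2ac19 and H2bc21, which were tested through their control values alone. Leaving out 1 library also changed calls. Without control replicate 1, and likewise without control replicate 2, 10 of the 13 called genes did not pass, the exceptions being H2ac19, H2ac20 and H2bc21, while the lower calls over all genes went from 6606 to 1105 and 1025. Without fusion replicate 1 the call of H1f2 was lost, and without fusion replicate 2 those of H2bc14 and Hist1h4n were. Of the 9 variants 8 were lower without fusion replicate 2, against 5 with all libraries.

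**Figure D5:**
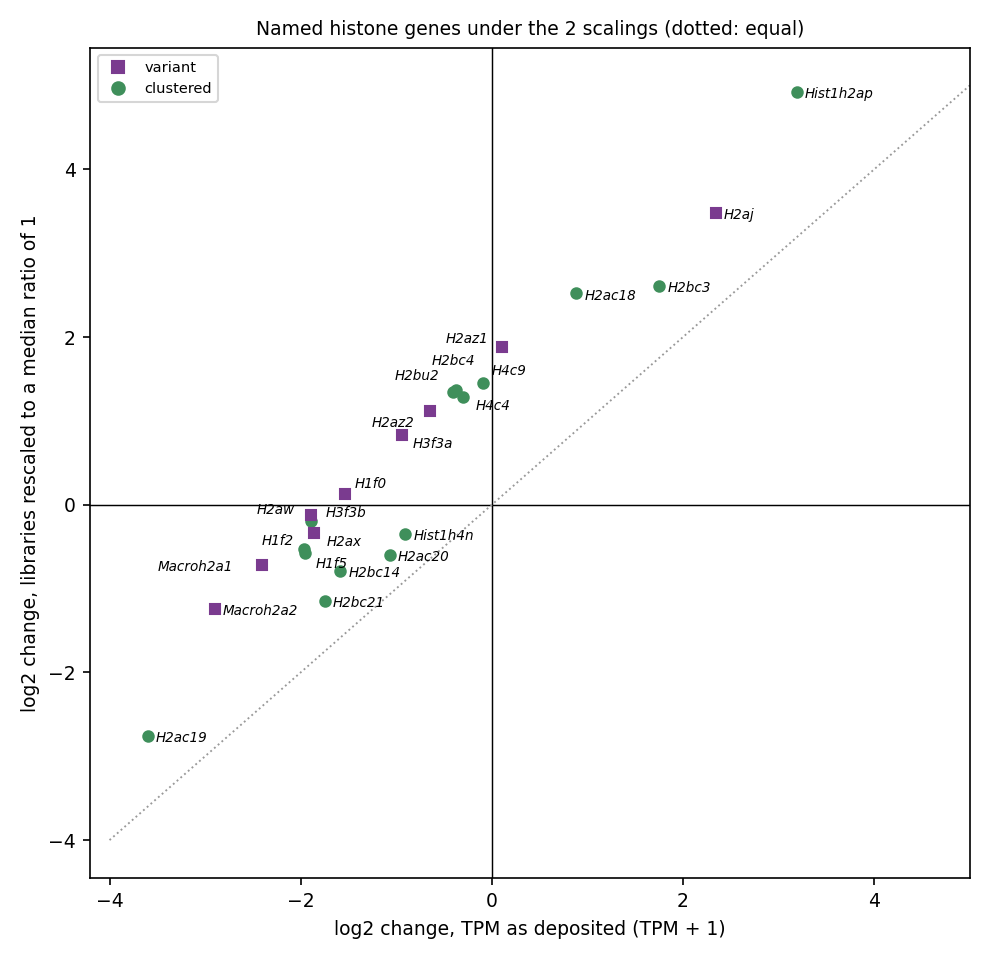
Log2 change of the 24 named histone genes with TPM as deposited (x) and after rescaling to a median ratio of 1 (y). Points in the upper left, among them H1f0, H3f3a, H2az2, H2bc4 and H2bu2, change direction; Macroh2a2 and H2ac19 stay below 0 under both and Hist1h2ap and H2aj above.

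Partners of the histones were read from lists drawn from their known roles. Of 18 genes for the processing of histone mRNA, 15 were tested, 7 fell, none rose and 8 did not pass, where 51.3% of all tested genes were lower and 4.95% higher, with a median log2 change of -1.33. Slbp, which binds the stem-loop, had 135 and 140 TPM in controls against 25.7 and 39.3 TPM with the fusion (log2 change -2.08 ± 0.37, SE, adjusted p = 0.00838, limma). Slbp was named after its values were seen. Snrpb, an Sm protein, went from 652 ± 96.7 to 38.3 ± 6.8 TPM and Cpsf3, the nuclease that cuts histone mRNA, from 113 ± 6.87 to 9.29 ± 0.587 TPM (SD, n = 2). Cpsf2, of the same complex, went from 13.0 ± 2.29 to 1.73 ± 0.985 TPM and Casp8ap2, needed for histone gene transcription, from 17.5 ± 4.17 to 3.26 ± 0.603 TPM. The Sm genes Snrpd3, Snrpe, Snrpf and Snrpg were named after their values were seen. Snrpd3 fell as Snrpb did, from 90.3 ± 32.7 to 26.9 ± 4.28 TPM (adjusted p = 0.0208, limma). Snrpe, Snrpf and Snrpg had higher means in the fusion libraries (584 ± 19.1 against 1197 ± 258 TPM for Snrpe). These higher genes did not pass (adjusted p = 0.0574, 0.154 and 0.124, limma).

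Histone chaperones, which carry histones to DNA, fell in 20 of 25 tested genes, with none higher and 5 not past the threshold, beside 51.3% lower and 4.95% higher over all tested genes (median log2 change -2.30, or -0.89 relative to all genes). Among those called lower, Hira, Ubn1, Cabin1, Supt6, Tonsl and Vps72 reached 1 TPM in the controls alone. The filter set their direction, so their calls are given as descriptions. Vps72, of the complex that places H2A.Z, went from 95.1 ± 14.1 to 0.691 ± 0.242 TPM. Nap1l4 went from 116 ± 32.0 to 2.30 ± 0.945 TPM and Asf1b, the H3-H4 chaperone of dividing cells, from 56.0 ± 3.50 to 1.68 ± 0.808 TPM. Hjurp, which loads the centromeric histone, went from 30.9 ± 13.8 to 1.45 ± 0.595 TPM, and its cargo Cenpa had 276 and 305 against 65.3 and 35.5 TPM (log2 change -2.57 ± 0.41, SE, adjusted p = 0.00662, limma). The H3.3 chaperones and Asf1a were named after their values were seen. Atrx fell from 67.6 ± 6.19 to 6.65 ± 1.48 TPM and Hira from 5.42 ± 1.69 to 0.277 ± 0.391 TPM, and Daxx (15.3 ± 5.23 and 6.15 ± 6.15 TPM) did not pass (SD, n = 2; adjusted p = 0.154, limma). Asf1a, the replication-independent paralog of Asf1b, had 12.9 ± 0.604 and 36.1 ± 22.0 TPM and did not pass (adjusted p = 0.0916, limma).

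Genes of S phase, when the cluster genes are transcribed, fell in 22 of 28 tested, with 1 higher and 5 not past the threshold, beside the same 51.3% and 4.95% (median log2 change -2.34, or -0.94 relative to all genes). Among those called lower, Cdc6, Ccne1, Ung and Fen1 reached 1 TPM in the controls alone. The filter set their direction, so their calls are descriptions, and they also enter this median. Tk1, for thymidine kinase, averaged 59.7 ± 8.27 TPM in controls and 1.07 ± 1.39 TPM with the fusion (SD, n = 2). Fen1, the flap nuclease of lagging strands, averaged 30.3 ± 9.05 and 0.137 ± 0.194 TPM. Cdc45, of the replicative helicase, averaged 28.1 ± 6.86 and 0.841 ± 1.17 TPM, and Rrm2, of ribonucleotide reductase, 138 ± 22.9 and 7.44 ± 0.906 TPM. Pola1, for the catalytic subunit of the priming polymerase, rose from 7.29 ± 1.04 to 22.4 ± 3.78 TPM (adjusted p = 0.0256, limma). Beside that median of -2.34, the 23 tested cluster genes had a median of -0.37 and all tested genes -1.41. The difference between the lists was not tested. Changes are of log2(TPM + 1), which understates those of low genes. Many tested cluster genes were near 1 TPM in controls, and Hist1h4n, at 1.04 and 1.16 against 0.241 and 0 TPM, gave -0.91. How much of the gap between the medians is due to this scale was not tested.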

How the data were processed

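RNA-seq libraries of sorted mouse forebrain cells (2 control, 2 fusion) were deposited by the authors as 1 table of TPM values per gene. The submitters' processing notes name Trimmomatic 0.39 and Salmon 1.8.0. TPM keeps no read depth, so no counting interval can be given, and an estimate can divide reads among near-identical histone copies unevenly. The 12871 genes that reached 1 TPM in 2 or more libraries were tested on log2(TPM + 1) with limma 3.58.1 (R 4.3.3, mean trend, 2 libraries against 2), with Benjamini-Hochberg adjustment over all of them and a threshold of 0.05. Log2 changes are on this scale and understate those of low genes. Named were histone genes with a mean of at least 5 TPM or past the threshold, and of each partner list at most the 4 largest changes in each direction among genes past it with a mean of at least 5 TPM. Older symbols and positions came from GENCODE M21 (GRCm38) by Ensembl identifier, which matched 86 of 86 genes. Promoters came from RefSeq. The fit was tested on simulated data. Alternatives were other pseudocounts, filters, scalings, a GC and length correction, a replicate block and leaving out each library. The members and lists were chosen with earlier results of these data known.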

Additional observations from a re-analysis of the deposited data

How the results depend on the processing

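Both the scaling and the libraries kept moved the results. Lower calls over all genes went from 6606 to 2396 (median ratio scaling), 1955 (quantile normalization) and 2117 (GC and length correction), and from 1025 to 7987 over the fits that left out 1 library, lowest without a control library. Higher calls went from 637 to 1846, 1948 and 1766 under those settings, 1031 without mitochondrial and ribosomal protein genes, 353 with no filter, 405 with a mean of at least 5 TPM, and 14 to 1084 with 1 library left out. Lower clustered genes (7) became 2, 1 and 1 under those scalings, 4 with no filter, 3 with the mean filter and 3 to 9 with 1 library left out. Higher clustered genes (1) became 6, 7 and 2, 3 without mitochondrial and ribosomal protein genes, 0 with a pseudocount of 0.1, with no filter and with the mean filter, and 0 to 3 with 1 library left out. Lower variants (5) became 0, 2 and 0, 3 without mitochondrial and ribosomal protein genes, 2 with no filter, and 0 to 8 with 1 library left out. Higher variants (0) became 1 under median ratio scaling and GC and length correction and 0 to 2 with 1 library left out.

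The log2 ratio of summed variant TPM (-0.53) was 1.13 after median ratio scaling, 0.01 without mitochondrial and ribosomal protein genes and from -1.34 to -0.02 with 1 library left out. That of the clustered genes (1.79) was 3.35 and 2.22 under those settings, ran from -0.57 to 2.64 with 1 library left out, and was -0.39 without Hist1h2ap, an alternative chosen after seeing the data. Directions turned under median ratio scaling for H1f0 (0.13), H2az2 (1.12), H2bc4 (1.37), H2bu2 (1.34), H3f3a (0.83), H4c4 (1.28) and H4c9 (1.45). They turned under quantile normalization for H1f0 (0.19), H2ac20 (0.05), H2az1 (-0.29), H2az2 (0.31), H2bc4 (1.30), H2bu2 (1.25), H4c4 (1.29), H4c9 (1.46) and Hist1h4n (0.23). Under GC and length correction they turned for H1f0 (0.58), H1f2 (0.23), H2az2 (0.75), H2bc4 (0.20), H2bu2 (0.35), H3f3a (0.46), H4c4 (0.59) and H4c9 (0.62), and without mitochondrial and ribosomal protein genes for H2bc4 (0.25), H2bu2 (0.21), H4c4 (0.27) and H4c9 (0.47). With 1 library left out, changes ran from -0.84 to 0.09 for H2bc4, -0.88 to 0.06 for H2bu2, -1.20 to 0.60 for H4c4, -0.87 to 0.68 for H4c9 and -0.61 to 0.83 for H2az1. The causes were not tested. Deviations of same-numbered libraries had a correlation of -0.0398, so the numbers were not shown to pair them. With the replicate block, Hist1h2ap (adjusted p = 0.0096), H2aj (0.0330) and H1f5 (0.0395) also passed, so that 2 clustered genes and 1 variant were higher. A fit that leaves out 1 library assumes that the lone library of a group varies like the other group.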
